A study of Homo sapiens with 39 samples.

Results

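Transcripts were compared between JJN3 cells kept for 24 h with ZnSO4, a soluble zinc salt, and JJN3 cells kept for 24 h with DMSO. DMSO, a solvent, was the control, and each group had 3 libraries. These 6 libraries were chosen by their labels, as the sample numbers 34 to 36 (ZnSO4) and 31 to 33 (DMSO), out of 39 libraries of the series. JJN3 is an established multiple myeloma line, a tumour of plasma cells, and every group was grown in RPMI with 10% FCS. The series also holds untreated cells at the start (T0), DMSO and ZnSO4 groups at 1, 3 and 6 h, and cells given GSK-J4, an inhibitor of the KDM6 histone H3K27 demethylases, at the same times. The comparison asks which transcripts differ after a day with ZnSO4. The treatment label of each library compared names ZnSO4 or DMSO alone, so whether the ZnSO4 cells also received DMSO is not known here. The zinc dose is not given in the sources used here, all libraries come from 1 cell line, and the labels do not say that the replicates were separate cultures, so each p-value speaks of library-to-library spread alone, and that spread may be technical. Of 57773 genes in the count table, 14460 passed the filter on low counts and were tested.

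Free zinc in the cytosol is kept very low by storage, export and restricted uptake. Metallothioneins are small cysteine-rich proteins that bind zinc and copper. SLC30 proteins carry zinc out of the cytosol, and SLC39 proteins carry it in. Zinc-bound MTF1, a transcription factor, switches on metallothionein genes and SLC30A1 through short promoter motifs called metal response elements. Zinc can also bind cysteines of KEAP1, the inhibitor of NRF2, a transcription factor of genes for glutathione, thioredoxin, quinone and haem metabolism.

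The 4 promoters below show where the core of the metal response element lies before the start of 4 genes whose transcripts rose strongly with ZnSO4. The sequences are RefSeq promoter entries on GRCh38.p14, cut to the 250 bases before the annotated start and written 5′ to 3′ on the gene's own strand. Capitals mark each match to TGCACNC or TGCGCNC on either strand, where N is any base; the 2 forms differ at 1 base and neighbouring matches may overlap. MT2A lies at chr16:56608334-56608583 on the plus strand, MT1X at chr16:56682220-56682469 and MT1H at chr16:56669564-56669813 on the plus strand, and SLC30A1 at chr1:211579162-211579411 on the minus strand.
MT2A: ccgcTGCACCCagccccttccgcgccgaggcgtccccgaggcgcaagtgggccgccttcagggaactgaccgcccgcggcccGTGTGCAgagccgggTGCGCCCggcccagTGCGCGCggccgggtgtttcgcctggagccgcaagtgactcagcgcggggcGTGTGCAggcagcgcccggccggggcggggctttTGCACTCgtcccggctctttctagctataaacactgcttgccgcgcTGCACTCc
MT1X: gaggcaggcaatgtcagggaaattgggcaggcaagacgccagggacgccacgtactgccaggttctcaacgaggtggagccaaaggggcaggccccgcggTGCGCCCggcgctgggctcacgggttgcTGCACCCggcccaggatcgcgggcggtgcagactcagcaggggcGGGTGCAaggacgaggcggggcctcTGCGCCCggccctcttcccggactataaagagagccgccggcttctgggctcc
MT1H: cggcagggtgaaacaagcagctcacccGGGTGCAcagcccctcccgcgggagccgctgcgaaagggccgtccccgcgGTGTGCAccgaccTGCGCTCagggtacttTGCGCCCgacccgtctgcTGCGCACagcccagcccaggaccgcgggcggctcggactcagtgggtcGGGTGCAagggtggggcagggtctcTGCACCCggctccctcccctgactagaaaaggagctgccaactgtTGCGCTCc
SLC30A1: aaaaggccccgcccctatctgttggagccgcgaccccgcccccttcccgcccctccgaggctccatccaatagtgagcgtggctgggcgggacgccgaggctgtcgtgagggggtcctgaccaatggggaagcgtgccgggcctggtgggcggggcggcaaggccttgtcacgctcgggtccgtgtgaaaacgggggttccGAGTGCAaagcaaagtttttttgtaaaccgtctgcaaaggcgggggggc
MT2A held 7 matches before its start, MT1H 8, MT1X 4 and SLC30A1 1. Entries were found for 4 of the 8 metallothioneins tested (MT1B, MT1H, MT1X and MT2A), each with at least 3 matches in the 300-base entry, which reaches 50 bases past the start. The same core is common elsewhere. It occurred at least once in 29.6% of all 35116 entries and in 39.4% of the 9989 tested genes with an entry, against 47% of 430 genes higher with ZnSO4 and 42.5% of 640 lower ones. At least 3 matches were present in 3.44% of tested genes, 3.95% of higher genes and 3.75% of lower genes. A match is a run of letters and not a measured binding site.

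All 8 metallothioneins that were tested rose with ZnSO4 at 24 h, while 3.98% of all genes tested rose and 5.58% fell (9.56% changed). Levels are given in CPM, counts scaled to the size of each library, and a gene counts as changed at a Benjamini-Hochberg adjusted p under 0.05 in edgeR's quasi-likelihood test. Log2 fold changes carry their standard error. MT1G was at 5.3, 5.43 and 8.45 CPM in the DMSO libraries and at 4962, 5279 and 5880 CPM in the ZnSO4 libraries. The 2 groups were far apart, and the fitted log2 fold change was 9.73 ± 0.22 (adjusted p = 7e-44). MT1X was at 16.6, 18.5 and 19.7 CPM with DMSO and at 1187, 1320 and 1513 CPM with ZnSO4 (log2 fold change 6.20 ± 0.11, adjusted p = 4.9e-50). MT2A was at 2.71 to 7.04 CPM with DMSO and at 956 to 1166 CPM with ZnSO4 (log2 fold change 7.89 ± 0.15, adjusted p = 5.1e-49).

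Other metallothionein copies were almost silent in DMSO, so their folds rest on few control counts. MT1H had 17 counts over the 3 DMSO libraries and 8729 over the ZnSO4 libraries, which after scaling is a ratio of 825, with a 95% interval from counting of 515 to 1417. MT1E had 6 and 1870 counts (ratio 501, 230 to 1366), and MT1F had 1 and 409 (ratio 657, 117 to 26022). MT1M had 0 counts with DMSO and 330 with ZnSO4, at least 177-fold higher when the control is set to a floor of 3 counts over the group. MT1B, with 0 and 43 counts, was at least 23-fold higher by the same floor, and was the 1 metallothionein given no adjusted p by DESeq2. MT1A did not pass the filter (0 and 7 counts), and MT3 and MT4 had 0 counts in all 6 libraries. The intervals and floors cover counting error only. MT1HL1, MT1XP1 and MT1P1, close copies of metallothionein genes, were higher too, at 12.1, 9.67 and 6.46 CPM with ZnSO4 against 0.0431, 0.184 and 0.27 CPM with DMSO. Because these copies resemble each other, the split of reads between them is uncertain. Summed over the named family, metallothioneins took 0.702 to 0.846% of all counts in the ZnSO4 libraries and 0.00235 to 0.00317% in the DMSO libraries of 24 h.

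**Figure D1:**
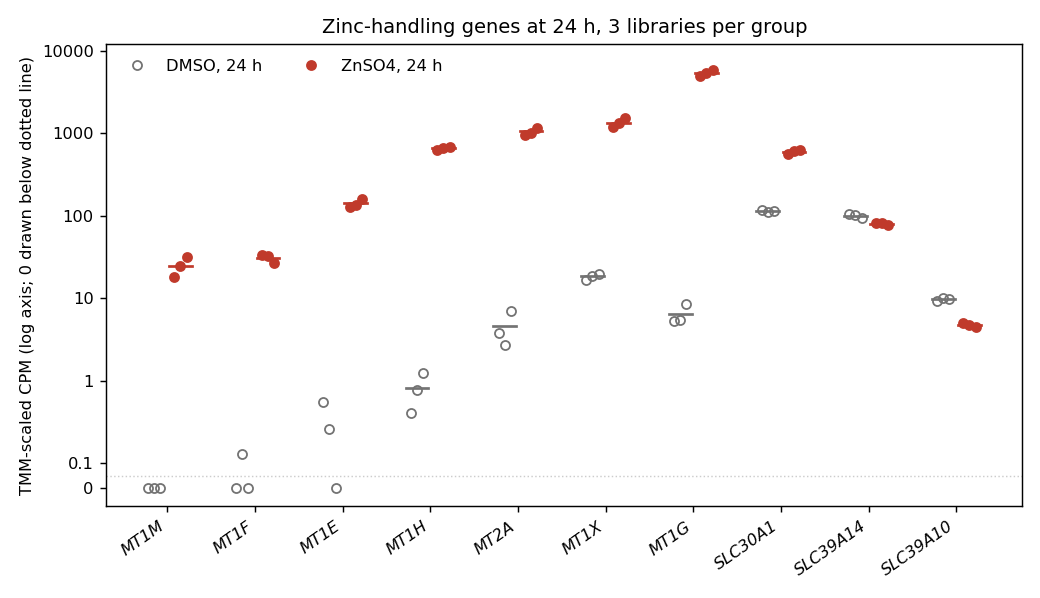
Levels of 7 metallothioneins and 3 zinc transporters in each library at 24 h, in TMM-scaled CPM on a log axis, with libraries at 0 drawn below the dotted line. Open points are DMSO, filled points are ZnSO4 and bars are means where no library was at 0; MT1G lay at 4962 to 5880 CPM with ZnSO4 against 5.3 to 8.45 CPM with DMSO, and SLC39A10 was lower with ZnSO4.

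Among zinc transporters, few genes moved, and those that did moved in opposite directions by family. SLC30A1, the exporter of the plasma membrane, was at 117, 110 and 115 CPM with DMSO and at 561, 599 and 627 CPM with ZnSO4. It rose 5.23-fold (log2 fold change 2.39 ± 0.07, adjusted p = 3.5e-38). SLC30A2, an exporter into vesicles, passed the test at very low counts, 2 over the DMSO libraries and 19 over the ZnSO4 libraries (ratio 15.3, counting interval 3.68 to 135), too few to be tested in 3 alternative settings. The other 5 exporters tested (SLC30A3, SLC30A5, SLC30A6, SLC30A7 and SLC30A9) did not pass, with log2 fold changes from -0.14 to 0.09. Of 11 importers tested 3 fell and none rose, while 4 lower and 0 higher had an unadjusted p under 0.05. SLC39A10, a plasma membrane importer, was at 9.23, 10.1 and 9.86 CPM with DMSO and at 5, 4.66 and 4.49 CPM with ZnSO4. The groups did not overlap, and its level fell by 1.04 ± 0.19 on the log2 scale (adjusted p = 6.1e-05). SLC39A14, which carries zinc and iron, went from 99.7 ± 4.87 to 79.5 ± 3.22 CPM (SD, n = 3; log2 fold change -0.33 ± 0.07, adjusted p = 0.0014). SLC39A6 changed by -0.16 ± 0.05 on the log2 scale (adjusted p = 0.031), and that call was lost in 5 of 13 alternative settings. MTF1 itself stood at 36.1 ± 1.86 CPM with DMSO and 36.5 ± 2.39 CPM with ZnSO4 (SD, n = 3; log2 fold change 0.01 ± 0.09). No gene of 10 for copper handling passed in edgeR or DESeq2, and 1 had an unadjusted p under 0.05 in edgeR, with log2 fold changes from -0.11 to 0.19.

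In all, 1382 of 14460 genes changed, 575 higher and 807 lower, and 3168 had an unadjusted p under 0.05. The ZnSO4 and DMSO libraries did not overlap in 3749 of the genes tested (25.9%), changed or not, and in 1328 of those that changed. Most changes were small. The median log2 fold change was 0.43 among the higher genes and -0.27 among the lower ones, and -0.002 over all genes tested. At least 2-fold differences were found for 82 higher and 15 lower genes. Of those 82, 13 were metallothioneins or their copies and 11 were processed pseudogenes of FTH1. The lower genes were mostly well expressed: 596 of the 807 lay among the 3615 genes with the highest average level, where 181 were higher, and 12 among the 3615 genes with the lowest, where 59 were higher. So 16.5% of the genes with the highest average level fell and 5.01% rose, against 5.58% and 3.98% over all genes tested. These shares are the background for the list counts below. Without ZnSO4 replicate 2, the deepest of its group, 778 genes changed (325 higher, 453 lower).

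**Figure D2:**
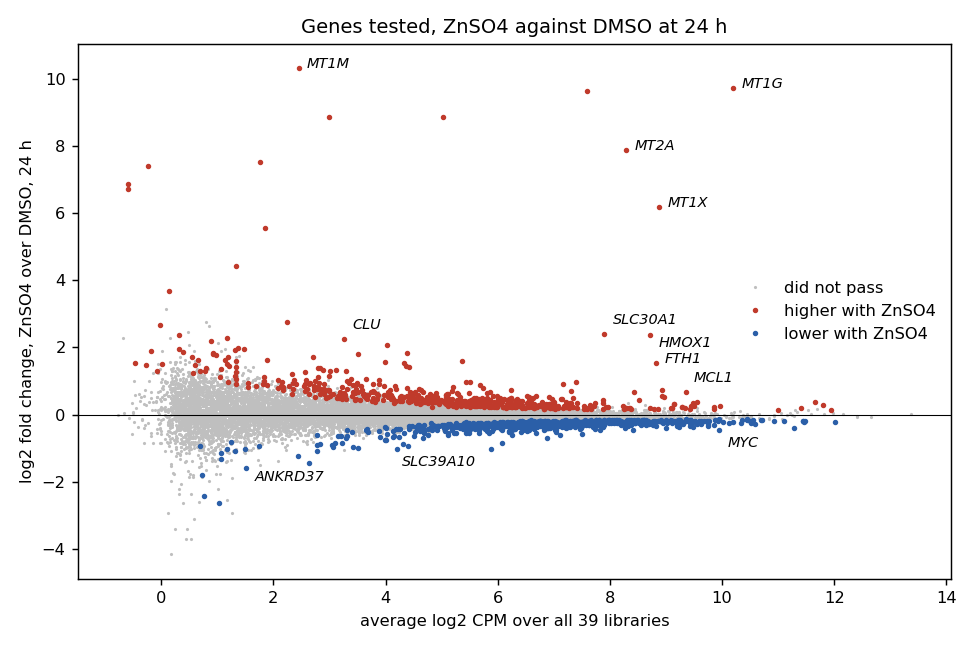
Log2 fold change of ZnSO4 over DMSO at 24 h against the average log2 CPM over all 39 libraries, 1 point per gene tested. Coloured points passed an adjusted p of 0.05 (575 higher, 807 lower); metallothioneins stand far above all other genes, and the lower genes lie close to 0 and mostly at high levels.

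Library totals were 7347387 to 8798556 counts with DMSO at 24 h and 4499906 to 5792725 with ZnSO4, within a range of 4347745 to 10695671 over the series. With the DMSO libraries thinned at random to 5009197 counts, 1170 genes changed (472 higher, 698 lower). The 3 replicates of each group differed from each other by more than counting noise, so none was a copy of another in its group. Libraries of different groups were not compared in this way. Mitochondrially encoded genes took 5.212 to 5.542% of counts with ZnSO4 and 4.753 to 5.194% with DMSO, and their part in the results was not tested. Plasma cell markers summed to 13235 to 14042 CPM in the 6 libraries, and those of T and NK cells, myeloid, erythroid and endothelial cells to at most 4.72 CPM per list, with CD3D, MPO and HBA1 at 0. Epithelial markers summed to 52.3 to 63.6 CPM and those of fibroblasts to 14.7 to 59.5 CPM. The epithelial sum was almost all EPCAM, with means of 59.5 CPM with DMSO and 56.4 CPM with ZnSO4. Group means of CDH1, KRT5, KRT7 and KRT19 were at most 0.727 CPM. Low levels of smooth muscle transcripts were present: 8 such genes, chosen after their values were seen, summed to 27.1 to 35.7 CPM with DMSO and to 43.7 to 85.1 CPM with ZnSO4, highest in ZnSO4 replicate 1. Of these, TAGLN, MYH11, DES, TPM2 and CAVIN1 passed the test, at 0.92 to 1.04 on the log2 scale, and each lost its call without that library. The calls were also lost in other settings: in all, 2 of 13 for TAGLN, 4 for MYH11 and TPM2, 5 for DES, and 7 of 12 for CAVIN1. TPM2 was even across the ZnSO4 libraries, at 8.51, 7.77 and 8.03 CPM. Collagen transcripts COL1A1, COL1A2 and COL3A1 summed to 53.1 and 56.2 CPM in DMSO replicates 1 and 2 but to 13 CPM in replicate 3, and to 38.7 to 48.8 CPM with ZnSO4. The part of these transcripts in other results was not tested.

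Of the 29 gene lists examined, the one with the largest share of higher genes after the metallothioneins was that of NRF2 targets: 15 of 24 tested rose and none fell, with a median log2 fold change of 0.34 against -0.002 over all genes. HMOX1, which encodes haem oxygenase 1, was at 110, 103 and 117 CPM with DMSO and at 529, 554 and 601 CPM with ZnSO4. It rose 5.12-fold (log2 fold change 2.36 ± 0.11, adjusted p = 6.3e-26). NQO1, a quinone reductase, went from 168, 168 and 174 CPM to 305, 341 and 358 CPM, 1.97-fold (adjusted p = 7.1e-18). In both genes every ZnSO4 library lay above every DMSO library. EPHX1, an epoxide hydrolase, rose by 0.88 ± 0.15 on the log2 scale, and UGDH, which makes UDP-glucuronate, by 0.63 ± 0.09.

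Genes of glutathione and thioredoxin were among the 15. SLC7A11, the cystine carrier that supplies glutathione synthesis, was at 31, 32.6 and 37.7 CPM with DMSO and at 51.5, 50.7 and 52 CPM with ZnSO4 (log2 fold change 0.61 ± 0.10, adjusted p = 1.2e-05). GCLM, the modifier subunit of the rate-limiting enzyme of glutathione synthesis, rose by 0.46 ± 0.08, and the catalytic subunit GCLC by 0.17 (adjusted p = 0.04957), a call lost in 7 of 13 alternative settings, among them the omission of any 1 of the 6 libraries. Thioredoxin reductase TXNRD1 rose by 0.55 ± 0.06 and glutathione reductase GSR by 0.45 ± 0.08. TXN, PRDX1, PGD, ME1, SQSTM1 and MAFG made up the rest, at 0.16 to 0.54 on the log2 scale. Of these, PGD lost its call in 6 of 13 settings and PRDX1 without DMSO replicate 2. SRXN1 (0.38, adjusted p = 0.44) and OSGIN1 (0.97, adjusted p = 0.23) did not pass, nor did KEAP1 itself (0.01, adjusted p = 0.97). The number of NRF2 targets that rose stayed at 12 to 15 in all 13 alternative settings.

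Both ferritin chains rose and the transferrin receptor fell. FTH1, the heavy chain of ferritin, was at 371, 348 and 373 CPM with DMSO and at 1000, 1059 and 1110 CPM with ZnSO4 (2.9-fold, log2 fold change 1.54 ± 0.07, adjusted p = 1.2e-26). The light chain FTL rose by 0.25 ± 0.05 on the log2 scale (adjusted p = 0.00049). TFRC, the transferrin receptor that takes up iron, fell by 0.32 ± 0.05 (adjusted p = 1.4e-05), from 1092 ± 25.3 to 873 ± 35.8 CPM (SD, n = 3). Of 14 iron genes tested 2 rose, 2 fell and 10 did not pass; the second that fell was HMOX2, which lost its call in 4 of 13 settings. Of 13 processed pseudogenes of FTH1 that were tested 11 rose. They resemble the FTH1 transcript, and reads may be shared between them.

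Protein-folding genes were mixed. Of 22 heat shock genes tested 4 rose, 5 fell and 13 did not pass. Without ZnSO4 replicate 2 the number that rose was 2, and the number that fell was 2 without ZnSO4 replicate 3 and 3 without ZnSO4 replicate 1 or DMSO replicate 1. In the fits of the 6 libraries compared and of the 9 libraries of 24 h, 7 rose and 6 fell. HSPB1, a small heat shock protein, was at 12.5, 12.9 and 13.9 CPM with DMSO and at 34.5, 34.4 and 44.9 CPM with ZnSO4 (log2 fold change 1.53 ± 0.13, adjusted p = 4.3e-15). HSPA6, an inducible HSP70, was low and uneven, at 1.03 to 2.17 CPM against 4, 4.66 and 11.1 CPM (adjusted p = 0.0017), and its call was lost without ZnSO4 replicate 3 (adjusted p = 0.096). HSPA8, the constitutive HSP70, rose by 0.36 ± 0.09 (adjusted p = 0.0077), a call lost without ZnSO4 replicate 2 (adjusted p = 0.054). DNAJB1 (0.33, adjusted p = 0.37) and BAG3 (-0.01, adjusted p = 0.98), a co-chaperone each, did not pass, and HSPA1A and HSPA1B had too few counts to be tested. The DNAJB1 libraries did not overlap, at 66.5 to 70.8 CPM with DMSO and 84.5 to 87.3 CPM with ZnSO4. AHSA1, which activates HSP90, fell by 0.35 ± 0.06, and STIP1, which links HSP70 to HSP90, by 0.23 ± 0.05. In the ER list 11 of 29 genes fell and none rose, among them the chaperones CALR (log2 fold change -0.28 ± 0.04, adjusted p = 1.4e-06) and PDIA4 (-0.30 ± 0.05, adjusted p = 4.4e-05). HSPA5, the main ER chaperone, was at 4143 ± 19.9 CPM with DMSO and 4151 ± 54.7 CPM with ZnSO4 (SD, n = 3; log2 fold change 0.00 ± 0.04). The number of ER genes that fell was 4 without ZnSO4 replicate 3 and 7 without DMSO replicate 1 or 3. In the main fit 5.58% of all genes tested fell, and 16.5% of the 3615 genes with the highest average level. The 11 of 29 are above both shares. In the fit without ZnSO4 replicate 3, which gave 4 of 29, 555 of all genes tested fell, against 807 in the main fit. The share that fell among the highest-level genes was not computed for that fit, so 4 of 29 cannot be set against it.

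Genes of the ATF4 pathway, which answers amino acid shortage and other stresses, were mixed: 4 of 31 rose and 4 fell. Only 1 rose without DMSO replicate 2 or ZnSO4 replicate 2, and 2 without DMSO replicate 1 or ZnSO4 replicate 1 or 3. ATF4 itself was at 895 to 966 CPM with DMSO and 921 to 957 CPM with ZnSO4 (log2 fold change 0.02 ± 0.05). DDIT3, the pro-apoptotic factor CHOP, rose by 0.56 ± 0.10 (adjusted p = 4.7e-05), while ASNS, asparagine synthetase, fell by 0.34 ± 0.08 (adjusted p = 0.0032) and SLC7A5, a carrier of large neutral amino acids, by 0.27 ± 0.05 (adjusted p = 5e-05). Cytosolic tRNA synthetases fell in 10 of 20 and rose in none, by at most 0.29 on the log2 scale (KARS1, from 487 ± 11.4 to 398 ± 14.9 CPM). The number that fell was 5 without DMSO replicate 1 and 6 without DMSO replicate 2, ZnSO4 replicate 2 or ZnSO4 replicate 3. For comparison, 16.5% of the 3615 genes with the highest average level fell in the main fit.

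MYC and genes of ribosome biogenesis were lower. All 24 tested had a log2 fold change below 0 (median -0.23, against -0.002 over all genes), and 14 of them fell. MYC was at 1332, 1297 and 1411 CPM with DMSO and at 1034, 935 and 969 CPM with ZnSO4. The groups did not overlap (log2 fold change -0.46 ± 0.09, adjusted p = 0.00018). NOLC1, a nucleolar scaffold, went from 772 ± 15.2 to 613 ± 24.3 CPM (SD, n = 3; log2 fold change -0.33 ± 0.04, adjusted p = 4.2e-08). UTP20 and NOP16, which act in assembly of the ribosomal subunits, fell by 0.42 ± 0.09 and 0.37 ± 0.07. NCL, nucleolin, fell by 0.20 ± 0.05. These genes are well expressed, as most lower genes were, and the number that fell was 7 without ZnSO4 replicate 3 and 9 without replicate 2.

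Plasma cell genes fell in 9 of 24 and rose in none. IRF4, the transcription factor on which myeloma lines depend, was at 1353, 1267 and 1375 CPM with DMSO and at 1188, 1034 and 950 CPM with ZnSO4 (log2 fold change -0.33 ± 0.06, adjusted p = 5.1e-05). PRDM1 and XBP1, 2 further plasma cell transcription factors, each fell by 0.25 ± 0.06, and POU2AF1, a co-activator, fell by 0.35 ± 0.09. Among surface antigens, SDC1 (CD138) went from 137 ± 5.63 to 112 ± 1.65 CPM (adjusted p = 0.00033) and TNFRSF17 (BCMA) from 185 ± 5.11 to 145 ± 6.31 CPM (adjusted p = 0.0049). GPRC5D, an orphan receptor, was low and went from 8.07 ± 0.503 to 4.13 ± 1.15 CPM (SD, n = 3; adjusted p = 0.0059). The calls of TNFRSF17 and GPRC5D were lost without ZnSO4 replicate 2, and that of XBP1 without replicate 3. CD38 (log2 fold change -0.01), SLAMF7 (-0.08) and JCHAIN (0.01) did not pass. In these bulk libraries, fewer cells of a state and less RNA per cell cannot be told apart.

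**Figure D3:**
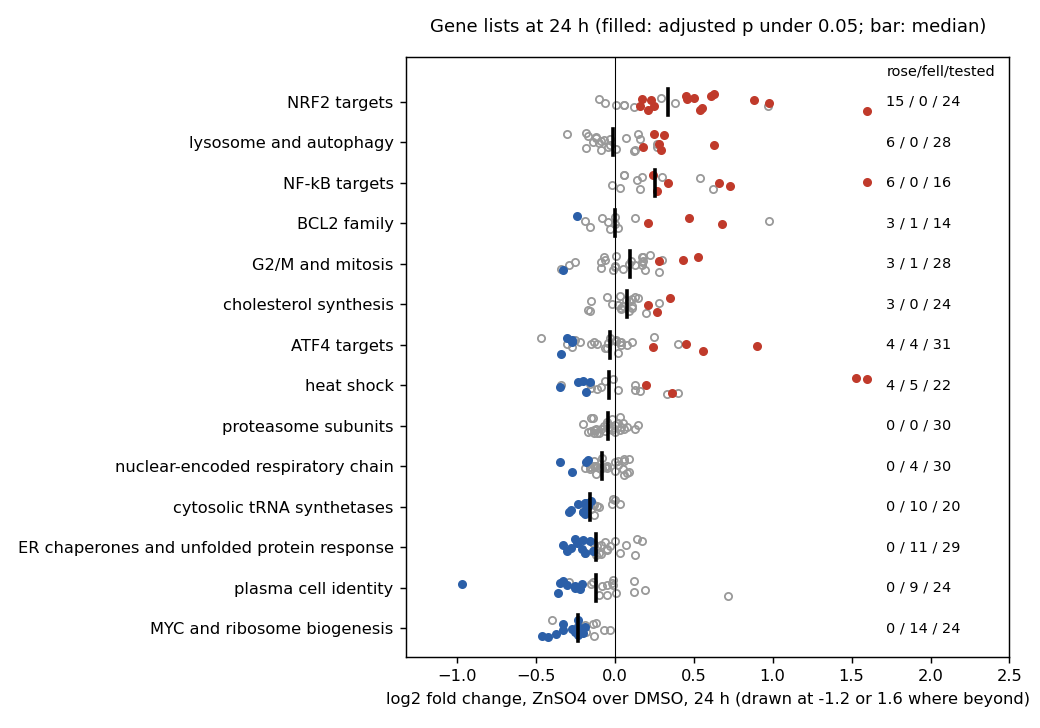
Log2 fold changes of ZnSO4 over DMSO at 24 h for the members of 14 gene lists, 1 point per gene tested; filled points passed an adjusted p of 0.05, black bars are list medians, and the numbers at the right count members that rose, fell and were tested. NRF2 targets lie mostly above 0, and all 24 genes of the MYC and ribosome biogenesis list lie below it.

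Survival, growth and cycle genes changed in few members. MCL1, an anti-apoptotic protein of the BCL2 family, was at 809, 789 and 767 CPM with DMSO and at 1218, 1254 and 1309 CPM with ZnSO4. It rose 1.6-fold (log2 fold change 0.68 ± 0.05, adjusted p = 4.6e-18). BMF, a pro-apoptotic member, rose by 0.47 ± 0.07 (adjusted p = 4.4e-07). Of the 14 members tested 3 rose and 1 fell; the third rise, PMAIP1, and the fall, BBC3, both pro-apoptotic, lost their calls in 5 and 7 of 13 alternative settings. CDKN1A, the inhibitor p21 of cyclin-dependent kinases, went from 8.76 ± 0.564 to 14.7 ± 0.682 CPM (SD, n = 3; adjusted p = 0.004). Of 28 genes of G1/S only CCND2 changed (log2 fold change -0.29 ± 0.06, adjusted p = 0.00034). Of 28 mitotic genes 3 rose and 1 fell, led by the mitotic kinases CDK1 (0.53 ± 0.10) and AURKB (0.43 ± 0.09); CDC20, which fell, lost its call in 5 of 13 settings. Fitted on the 9 libraries of 24 h alone, 8 mitotic genes rose and 2 fell.

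Several groups gave fewer or weaker calls. NF-kB targets rose in 6 of 16, led by CXCL10, a chemokine (1.02 ± 0.444 to 3.87 ± 1.87 CPM; SD, n = 3; adjusted p = 0.0005, and 0.066 without ZnSO4 replicate 2), but in 3 with DESeq2, in 2 without ZnSO4 replicate 1 and in 1 without the filter on low counts. No identifier of the count table received the symbol CCL3 or CCL4, also on the NF-kB list, so the NF-kB counts leave them out. Whether either stands among the identifiers without a symbol was not examined. Lysosome and autophagy genes rose in 6 of 28, led by GABARAPL1, an adaptor of autophagosomes (log2 fold change 0.63 ± 0.09, adjusted p = 8.4e-07). Cholesterol synthesis rose in 3 of 24, with HMGCS1, which makes an early intermediate, at 0.35 ± 0.06, and in 1 without DMSO replicate 3 or ZnSO4 replicate 2. Immediate early genes rose in 5 of 26 and fell in 7, with DUSP5, a phosphatase of ERK, at 0.51 ± 0.08 and the transcription factor KLF2 at -0.63 ± 0.11. Leaving out ZnSO4 replicate 2 left 1 of those falls, DMSO replicate 2 left 3 and DMSO replicate 1 left 4. Leaving out DMSO replicate 2 or ZnSO4 replicate 3 left 2 of the rises, and DMSO replicate 1 or ZnSO4 replicate 1 left 3. Glycolysis and hypoxia genes rose in 5 of 26 and fell in 3, with PKM, pyruvate kinase, at 0.20 ± 0.04 and HK2, hexokinase 2, at -0.40 ± 0.07. Only 3 of the rises were counted without DMSO replicate 1 or 2 or ZnSO4 replicate 2 or 3.

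Respiratory chain genes of the nucleus fell in 4 of 30, led by CYC1, cytochrome c1 (log2 fold change -0.35 ± 0.05, adjusted p = 1.2e-06), and in 2 without DMSO replicate 3 or ZnSO4 replicate 1 or 2. Over all genes tested 5.58% fell, and 16.5% of the 3615 genes with the highest average level. The share of 4 in 30 is not above the latter. Of 13 mitochondrially encoded mRNAs 2 rose, 1 without DMSO replicate 1 and 5 in a fit of the 6 libraries alone. No proteasome subunit of 30 passed in edgeR's fit of all 39 libraries or in DESeq2, and 8 had an unadjusted p under 0.05 in the former; in a fit of the 9 libraries of 24 h 1 rose and 1 fell. No gene of 18 for MHC class I and II passed in the fit of all 39 libraries, where 2 had an unadjusted p under 0.05; 1 fell in DESeq2, and 2 fell in edgeR's fits of the 6 and of the 9 libraries. Interferon-stimulated genes gave 1 rise (IRF7) and 1 fall (IFI27) among 21, both lost without ZnSO4 replicate 2 or 3 or DMSO replicate 2; the rise was also lost without DMSO replicate 3, and 2 rose without DMSO replicate 1. Fatty acid synthesis gave 1 and 1 among 11, where the fall, of the synthase FASN, was lost without DMSO replicate 1 or ZnSO4 replicate 2 or 3. Targets of p53 gave 2 and 1 among 21. Chemokine and other G protein-coupled receptors with secreted factors gave 1 and 1 among 13, where the fall, of GPR37, was lost without DMSO or ZnSO4 replicate 2 or 3. The known targets of GSK-J4 did not pass: KDM6A had a log2 fold change of 0.03 ± 0.11 and KDM6B of -0.12 ± 0.19. EZH2, the opposing H3K27 methyltransferase, rose by 0.24 ± 0.06 (adjusted p = 0.0034), the only call among 9 genes of that list, lost without the filter on low counts (adjusted p = 0.057).

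Among genes with a symbol, an average log2 CPM of at least 1 and no overlap between groups, the largest falls were at low levels. ENSG00000006075, an identifier without a symbol, fell by 1.03 on the log2 scale from a higher level and is described at the end. ANKRD37, a hypoxia-induced ankyrin repeat gene, went from 2.85, 3.88 and 4.22 CPM to 1.25, 1.17 and 1.18 CPM (log2 fold change -1.59 ± 0.35, adjusted p = 0.001). CHST14, a sulphotransferase of dermatan sulphate, went from 3.8, 5.17 and 5.01 CPM to 1.5, 2.33 and 1.18 CPM (log2 fold change -1.43 ± 0.32). ENAM, which encodes an enamel protein, fell by 1.00 ± 0.21. These 3 genes were picked among those without overlap between ZnSO4 and DMSO libraries, so the lack of overlap is no support for them. Their calls held in all 13 alternative settings for CHST14 and ENAM and in the 12 that gave an adjusted p for ANKRD37. AC110491.1, SFRP2, C5, CCN2, GPR37, RPP21 and SNRPEP6, at -2.63 to -1.03, each lost their call in at least 5 alternative settings.

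In edgeR's test of the difference, the 24 h effect was set against the effect at 6 h, each with DMSO libraries of its own time. The effects differed for 59 genes (0.408% of those tested), in 16 with a more positive and in 43 with a more negative effect at 24 h, and for 38 without ZnSO4 24 h replicate 2 and 39 without DMSO 6 h replicate 2. The same direction at 6 h was found for 87.1% of the 575 higher and 92.2% of the 807 lower genes, and for 62.6% of genes that did not pass at 24 h. Of the 82 genes at least 2-fold higher at 24 h, 52 were also at least 2-fold higher at 6 h. HMOX1 stood at 2393 ± 217 CPM at 3 h, 1168 ± 213 at 6 h and 562 ± 36.7 at 24 h with ZnSO4 (SD, n = 3), and its effect was smaller at 24 h by 1.55 ± 0.16 (adjusted p = 9.9e-10). MT1X had nearly the same level with ZnSO4 at 6 and 24 h, 1287 ± 134 and 1340 ± 164 CPM, but its DMSO level was 7.11 ± 0.736 and 18.3 ± 1.59 CPM, and its effect was smaller at 24 h by 1.30 ± 0.22 (adjusted p = 0.00015). None of the other 7 metallothioneins passed this test, and their DMSO levels were low at both times. SLC39A10 had a lower DMSO level at 24 h (9.72 ± 0.437 CPM) than at 6 h (27.5 ± 4.03 CPM), its ZnSO4 level was 4.72 ± 0.262 and 11.3 ± 0.525 CPM, and the effects did not pass as different (0.23 ± 0.24, adjusted p = 0.86). SLC30A1 went from 269 ± 22.2 CPM at 6 h to 596 ± 33.6 CPM at 24 h with ZnSO4, its DMSO level from 61.7 ± 10.2 to 114 ± 3.5 CPM, and the difference of effects did not pass (0.26, adjusted p = 0.38). MCL1 had a more positive effect at 24 h: its log2 fold change was 0.07 ± 0.05 at 6 h and 0.68 ± 0.05 at 24 h (difference 0.61 ± 0.07, adjusted p = 4.2e-09).

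**Figure D4:**
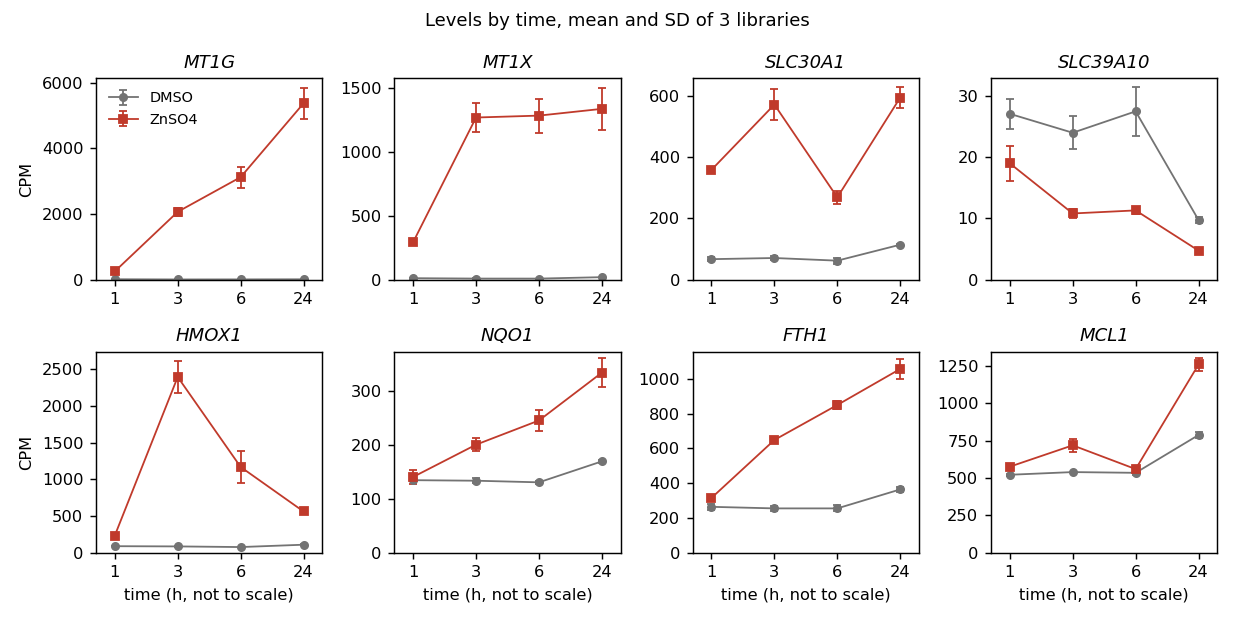
Levels of 8 genes with DMSO and with ZnSO4 at 1, 3, 6 and 24 h, as mean and SD of 3 libraries in CPM on linear axes from 0, with times equally spaced. HMOX1 was highest at 3 h (2393 CPM), MT1G, NQO1 and FTH1 were highest at 24 h, and the DMSO levels of SLC30A1, FTH1 and MCL1 were also higher at 24 h than at 6 h.

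Against GSK-J4 at the same time, 3546 genes differed (24.5% of those tested; 12.5% higher with ZnSO4 and 12% lower). This comparison shares its ZnSO4 libraries with the one against DMSO. With library totals alone as the scaling, which moved the median log2 difference of all genes from -0.007 to -0.077, 1229 were higher and 2447 lower. All 8 metallothioneins were higher with ZnSO4. MT1G stood at 5373 ± 466 CPM with ZnSO4 and 1965 ± 85.7 CPM with GSK-J4 (SD, n = 3; log2 difference 1.45 ± 0.13, adjusted p = 7.4e-14), and SLC30A1 at 596 ± 33.6 and 199 ± 4.47 CPM (1.58 ± 0.07, adjusted p = 1.2e-28). HMOX1 was higher by 1.30 ± 0.11 and HSPB1 by 1.68 ± 0.13. For ATF4 targets the direction was the reverse: 25 of 31 were lower with ZnSO4 and none higher, with ASNS at 77.6 ± 3.29 CPM against 223 ± 6.5 CPM (log2 difference -1.52 ± 0.08, adjusted p = 7.3e-25). Mitotic genes were higher with ZnSO4 in 21 of 28, and MYC and ribosome biogenesis genes in 17 of 24.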

How the data were processed

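RNA sequencing was deposited for 39 JJN3 libraries, 13 groups of treatment and time with 3 libraries each. Trizol extraction and the NEBNext Ultra RNA kit are named in the labels. HISAT2 2.1.0 and the build hg19 stand in the submitters' processing notes as the authors' alignment. What counted the reads, on which annotation and strand, and at which doses the cells were kept is not given in the sources used here, so reads of overlapping or antisense genes cannot be told apart. The treatment text in the labels names 3, 6 and 24 h, and the sample labels also 1 h. The deposited table holds the authors' whole-number counts per gene, used as they stand. Of 57773 identifiers 5435 received no symbol. Library totals ran from 4347745 to 10695671, and 3 counts equal 0.341 to 0.408 CPM in the DMSO and 0.518 to 0.667 CPM in the ZnSO4 libraries of 24 h.

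All libraries were fitted together in R 4.3.3 with edgeR 4.0.16 and limma 3.58.1: TMM scaling, a low-count filter (filterByExpr, minimum count 10), a coefficient for each group, quasi-likelihood F-tests and Benjamini-Hochberg adjustment over 14460 genes, with 26 residual degrees of freedom and a biological coefficient of variation of 4.8%. The standard error is the log2 fold change over the square root of F. The steps were tested on simulated data. Contrasts were ZnSO4 against DMSO at 24 h, that effect minus the effect at 6 h, and ZnSO4 against GSK-J4 at 24 h. Ratios at low counts carry exact 95% counting intervals.

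Gene lists and members were chosen with earlier results of these data known. Of 648 list entries 642 matched. Named genes are the 12 largest rises and 12 largest falls among changed genes with a symbol, an average log2 CPM of at least 1 and no overlap between groups. Immunoglobulin genes were left out of that ranking. All zinc genes, a panel of stress and plasma cell genes, and up to 4 members of each list with the smallest p were added. Other named genes were chosen after their values were seen. Promoter sequences are from RefSeq (GRCh38.p14), another build than the alignment, matched by symbol. Alternatives were DESeq2 1.42.0, RLE or library totals as scaling, no filter, fits of 6 or 9 libraries, leaving out each library, a 2-fold limit, and, chosen after seeing the data, DMSO libraries thinned to 5009197 counts.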

Additional observations from a re-analysis of the deposited data

Results flagged for a closer look

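The effect of ZnSO4 at 24 h differed from its effect at 6 h for 59 genes by edgeR's test of the difference (16 more positive and 43 more negative at 24 h; 1295 genes had an unadjusted p under 0.05), and 36 of these genes had also changed at 24 h. The values that follow are the log2 effect at 24 h minus that at 6 h for the named genes among them, each with its own DMSO libraries.

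Genes with a smaller rise at 24 h than at 6 h were the metallothionein MT1X (-1.30 ± 0.22), the NRF2 targets HMOX1 (-1.55 ± 0.16), GCLM (-0.47 ± 0.10) and SQSTM1 (-0.42 ± 0.07), and the mitophagy receptor BNIP3L (-0.52 ± 0.11). HMOX1 stood at a log2 fold change of 3.90 ± 0.12 at 6 h and 2.36 ± 0.11 at 24 h.

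Genes above 0 at 6 h and below 0 at 24 h were the divergent transcript MVP-DT (-1.40 ± 0.34), the chaperones HSP90AB1 (-0.33 ± 0.06) and HSPD1 (-0.36 ± 0.07), the serine synthesis enzyme PSAT1 (-0.38 ± 0.08), the amino acid carrier subunit SLC3A2 (-0.28 ± 0.07), the tRNA synthetase AARS1 (-0.31 ± 0.08), the stress gene NDRG1 (-0.39 ± 0.07), the transcription factors JUN (-0.48 ± 0.11) and KLF6 (-0.61 ± 0.12), and RGS1 (-0.53 ± 0.11), a regulator of G protein signalling. Of these 10, MVP-DT, HSPD1, AARS1, JUN and KLF6 passed the test at 24 h itself. That call was lost in 8 of 13 alternative settings for KLF6, in 4 for HSPD1 and AARS1, in 2 for JUN and in none for MVP-DT.

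Genes with a more positive effect at 24 h were the anti-apoptotic MCL1 (0.61 ± 0.07), the chaperone HSPA8 (0.96 ± 0.13), the sestrin SESN2 (0.71 ± 0.15) and MDM2 (0.50 ± 0.11), the ubiquitin ligase of p53. HSPA8 was at a log2 fold change of -0.61 ± 0.09 at 6 h and 0.36 ± 0.09 at 24 h.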

How the results depend on the processing

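No paired analysis was possible because the labels give only running sample numbers, none of which is shared between groups. Against 1382 changed genes at 24 h (575 higher, 807 lower), the count was 1033 without the filter, 1264 with DESeq2, 1320 with library totals (676 higher, 644 lower), 1359 with RLE size factors, 1486 and 1671 in fits of 6 and 9 libraries, and 1170 with thinned DMSO libraries. A 2-fold limit left 97. Leaving out 1 library gave 778 to 1126, lowest without ZnSO4 24 h replicate 2. The 59 genes whose effect differed between 24 and 6 h became 38 to 61 on leaving out 1 library, and 38 without ZnSO4 24 h replicate 2 and 39 without DMSO 6 h replicate 2 were the lowest. The 3546 genes that differed from GSK-J4 became 2910 to 3178, and with library totals the split moved from 51.1% to 33.4% higher. The cause of these moves was not tested. Of 105 named genes that changed, 66 kept their call in each of 13 settings and 33 lost it in at least 1. The other 6 never lost it but were given no adjusted p in at least 1. Among all 125 named genes, no value changed sign where the gene passed in the main fit or in the alternative. Sign changes of genes that passed in neither were not counted. With only the bases before the start, the promoter motif was present in 33.8% of tested genes, 39.8% of higher and 37.3% of lower genes. The call of SLC30A2 rests on 2 counts with DMSO and 19 with ZnSO4.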

Other observations

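Genes of the zinc finger family named ZNF, many of them transcriptional repressors, were more often higher than other coding genes of similar level. The family was chosen after its values were seen, so it has no test. Of 402 protein-coding ZNF genes tested 43 rose (10.7%) and 1 fell, with a median log2 fold change of 0.14, and 70.9% lay above 0. Of 7526 other protein-coding genes in the same range of levels 4.29% rose and 3% fell, with a median of 0.01. ZNF181 went from 6.65, 4.65 and 5.32 CPM with DMSO to 14, 9.72 and 10.4 CPM with ZnSO4 (log2 fold change 1.02 ± 0.20, adjusted p = 0.00017), and ZNF230 rose by 0.90 ± 0.22. Among cytosolic ribosomal proteins 13 of 80 fell (16.2%) and 1 rose (median -0.07), a share close to the 16.5% that fell among the 3615 genes with the highest average level. Of 9 subunits of the CCT chaperonin, also highly expressed, 7 fell (median -0.19). Both groups were also chosen after their values were seen.

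Several genes outside the lists, picked after their values were seen, kept their calls in all 13 alternative settings, or for ABCB1 in the 12 that gave an adjusted p. CLU, the secreted chaperone clusterin, was at 7.6, 6.72 and 5.79 CPM with DMSO and at 25.8, 34.6 and 35.4 CPM with ZnSO4 (log2 fold change 2.25 ± 0.17, adjusted p = 8.8e-17). ABCB1, the drug efflux pump P-glycoprotein, was at 2.04, 1.68 and 1.25 CPM with DMSO and at 7.5, 6.22 and 6.14 CPM with ZnSO4 (1.97 ± 0.31, adjusted p = 3.1e-06). The groups did not overlap in either gene. P4HA2, a prolyl hydroxylase of collagen, rose by 1.31 ± 0.19, the galectin LGALS1 by 1.05 ± 0.15 and S100A10 by 1.01 ± 0.14. SKI, a co-repressor of SMAD signalling, rose by 0.98 ± 0.12 at 24 h, with a log2 fold change of 0.17 at 6 h (difference 0.81 ± 0.15, adjusted p = 0.00078).

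Lower genes of the same kind were UBB, a polyubiquitin gene (log2 fold change -0.94 ± 0.13), MAK16, which acts in ribosome assembly (-0.86 ± 0.10), CYTIP, which binds cytohesin (-0.69 ± 0.07), and the pseudokinase TRIB1 (-0.57 ± 0.07). An identifier without a symbol here, ENSG00000006075, was at 187, 190 and 217 CPM with DMSO and at 97.6, 98.2 and 94.5 CPM with ZnSO4 (log2 fold change -1.03 ± 0.08, adjusted p = 8.5e-17). Its effect at 6 h was 0.19, and the difference between the times was -1.22 ± 0.19 (adjusted p = 3.8e-05).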
